A study of Mus musculus with 7 samples.

Results

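The genes that copy DNA and the genes that divide chromosomes were followed in sorted β-cells of db/+, db/db and Aldh1a3 KO_db/db mice. The 50 members were chosen by symbol from a list of replication and mitosis genes, and all 50 were found among the 35013 genes of the count table. They comprised 14 replication genes (Mcm2 to Mcm7, Gins2, Cdc6, Cdt1, Pcna, Rrm1, Rrm2, Tyms and Tk1), 34 mitotic genes, and the transcription factors E2f1 and Foxm1, called regulators here. Of the 14 replication genes, 4 were lower in db/db and 9 in KO_db/db than in db/+ β-cells by the test used, where 18.0% and 17.9% of all genes tested were lower. The 9 became 4 when either KO_db/db library was left out. With TMM scaling, the summed level of the 14 in each of these 4 libraries was 0.567 to 0.621 of the lean mean. Their median log2 fold change in db/db was -0.92, but -0.43 with scaling to total counts. Few mitotic genes passed the test, and the 2 db/db mice differed from each other by a median of 4.30-fold over the 34. Mki67 was called higher in both groups than in db/+, but its log2 fold change in db/db went from 2.69 to 1.19 without db/db 2.

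The data were 7 poly-A RNA-seq libraries of sorted β-cells, with 1 library per mouse. Every mouse carried the RIP-Cre Herr transgene, a Cre driven by the rat insulin promoter, and a tdT fl/+ reporter allele (tdTomato). The 3 db/+ mice, the lean controls, combined Lepr db/+ with Aldh1a3 fl/+. The 2 db/db mice combined Lepr db/db with Aldh1a3 fl/+, and so lacked a working leptin receptor, which makes them obese and diabetic. Like the lean mice, they carried 1 floxed Aldh1a3 allele, which the Cre deletes in β-cells, and 1 allele that is not floxed. The 2 KO_db/db mice combined Lepr db/db with Aldh1a3 fl/fl, so that the Cre deletes in β-cells a retinaldehyde dehydrogenase gene known to rise in failing β-cells. Mice were adults that had been fasted overnight. The paper used both male and female mice. The age and sex of each animal and the gate used for this sort were not given in the sources used here.

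In a cycling cell, E2F factors switch on the replication genes as the cell enters S phase. The MCM helicase then unwinds DNA, PCNA holds the polymerases to it, and ribonucleotide reductase supplies the deoxynucleotides. The mitotic genes follow in G2 and M phase under the MuvB complex with FOXM1, through CHR and CCAAT elements in their promoters. Adult β-cells are largely quiescent, and the MCM genes and Pcna are known to be expressed, at a low level, outside S phase as well.

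Total counts ran from 27496645 to 35852785 per library, so 3 counts, taken as the detection floor, corresponded to 0.0717 to 0.123 CPM (a count scaled to the size of its library). CPM values were scaled by TMM factors over all 7 libraries. Of the 50 members, 15 had a mean count under 30 per library, and 34 a mean under 100. The β-cell markers Ins1, Ins2, Pdx1 and Nkx6-1 were present in all 7 libraries. Aldh1a3 was at 4.97 and 7.89 CPM in KO_db/db, at 98.4 and 194 in db/db, and at 0.0729 to 0.589 in db/+. Markers of acinar cells, 28 in all, summed to 141351 and 11801 CPM in KO_db/db 1 and 2 against 80.2 to 405 in the other 5 libraries. The library db/+ 3 held 2911 counts over 4 Y-linked genes, where the other 6 held 20 to 79. In bulk RNA of this kind, fewer cells of a type and less RNA per cell cannot be told apart.

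The promoters of 6 members are shown because they carry the elements through which E2F and MuvB complexes are known to act on these classes. RefSeq promoter windows (GRCm38.p6) were matched for 42 of the 50 members, giving 45 windows, of which the 250 bases before the start site were searched on both strands. Ccna2, Aurkb, Kif20a, Tpx2, Spc24, Mcm4, Gins2 and Foxm1 were not matched. The letters searched were TTTCCCGC, TTTGGCGC, TTTGCCGC and TTTCGCGC for E2F, TTTGAA and TTCGAA for CHR, and CCAAT. An E2F match was present in 4 of 13 windows of replication members (30.8%), in 1 of 31 windows of mitotic members (3.23%), and in 611 of all 32851 windows (1.86%). A CHR match was present in 12 of 31 windows of mitotic members (38.7%), in 2 of 13 of replication members (15.4%), and in 17.1% of all windows. CCAAT was present in 77.4% of mitotic, 69.2% of replication and 33.8% of all windows. The stretches below run 5′ to 3′ along the gene, and capitals mark the matches, a match on the other strand appearing as its reverse complement. In Mcm5 and Mcm6 an E2F match on either strand overlaps the next by 4 letters.
Mcm5, chr8:75109346-75109501, plus strand: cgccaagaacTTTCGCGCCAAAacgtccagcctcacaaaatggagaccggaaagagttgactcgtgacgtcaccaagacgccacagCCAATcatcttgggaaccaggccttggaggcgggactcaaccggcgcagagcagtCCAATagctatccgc
Mcm6, chr1:128359706-128359825, minus strand: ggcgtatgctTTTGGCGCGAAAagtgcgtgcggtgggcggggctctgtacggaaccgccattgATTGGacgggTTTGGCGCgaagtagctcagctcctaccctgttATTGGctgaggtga
Mcm2, chr6:88898835-88898965, minus strand: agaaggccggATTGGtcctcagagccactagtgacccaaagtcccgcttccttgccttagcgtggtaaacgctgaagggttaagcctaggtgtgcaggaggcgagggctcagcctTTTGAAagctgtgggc
Mki67, chr7:135716462-135716577, minus strand: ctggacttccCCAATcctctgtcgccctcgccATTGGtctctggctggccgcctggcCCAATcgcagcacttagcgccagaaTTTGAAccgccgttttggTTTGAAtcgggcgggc
Top2a, chr11:99024197-99024426, minus strand: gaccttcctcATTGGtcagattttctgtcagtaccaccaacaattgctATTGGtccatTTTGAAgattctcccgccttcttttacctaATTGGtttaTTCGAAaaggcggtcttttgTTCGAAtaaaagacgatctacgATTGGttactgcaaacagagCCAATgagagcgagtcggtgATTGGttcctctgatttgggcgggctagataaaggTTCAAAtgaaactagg
Cdk1, chr10:69352939-69353130, minus strand: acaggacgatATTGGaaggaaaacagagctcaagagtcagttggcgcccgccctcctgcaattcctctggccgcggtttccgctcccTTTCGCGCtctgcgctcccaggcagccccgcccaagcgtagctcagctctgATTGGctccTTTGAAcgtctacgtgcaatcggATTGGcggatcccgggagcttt
Mcm5 and Mcm6 thus held E2F letters, Mcm2, Mki67 and Top2a held CHR letters, and Cdk1 held both. A match describes the letters of the window and says nothing of which factor was bound in these cells.

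The first question was how the replication genes of db/db and KO_db/db β-cells compared with those of lean β-cells. The summed CPM of the 14 replication members was 124, 110 and 153 in the db/+ libraries, 77.9 and 79.9 in db/db, and 79.5 and 73.0 in KO_db/db. On this TMM scale the 4 libraries on the db/db background lay between 0.567 and 0.621 of the lean mean, and none reached the lowest lean library. The TMM factors were 1.20 and 1.23 in db/db, 0.886 and 1.15 in KO_db/db, and 0.869 to 0.874 in db/+, so these ratios depend on them. Of the 14, 4 were called lower and 0 higher in db/db against db/+ (edgeR quasi-likelihood test, adjusted p under 0.05). Among all 13406 genes tested in that comparison, 18.0% were called lower and 19.9% higher. In KO_db/db against db/+, 9 of 14 were called lower and 0 higher, where 17.9% of all 13228 genes were called lower and 20.5% higher. The 9 fell to 4 without KO_db/db 1, without KO_db/db 2 and with total-count scaling, under which 9.42%, 13.4% and 4.91% of all genes were called lower. The median log2 fold change of the replication members was -0.92 in db/db and -0.72 in KO_db/db, whereas that of all genes was 0.0064 and -0.0034. With total-count scaling it was -0.43 and -0.515, whereas that of all genes was 0.50 and 0.21. Both comparisons use the same 3 lean libraries. The library db/+ 3, which held 2911 Y-linked counts, was the highest for every replication member except Rrm1 and Rrm2. Without db/+ 3 the median was -0.50 in db/db and -0.565 in KO_db/db. The part of sex in these levels was not tested.

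**Figure D1:**
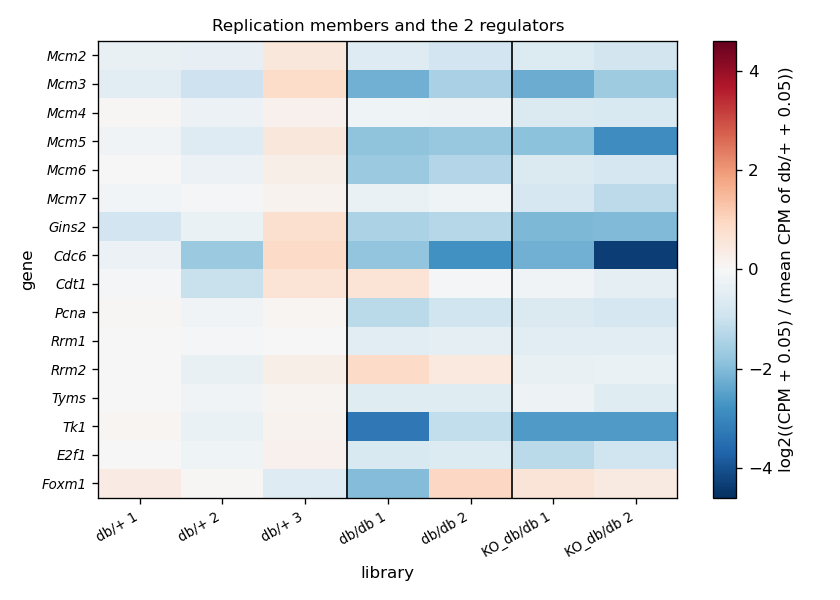
Heat map of the 14 replication members and the 2 regulators (rows) in the 7 libraries (columns), coloured by the log2 ratio of CPM to the mean of the 3 db/+ libraries after 0.05 CPM was added to both. Blue, lower than lean, fills most of the 4 right-hand columns except at Rrm2 in db/db, Cdt1 in db/db 1 and Foxm1 in db/db 2 and both KO_db/db libraries.

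The 6 MCM subunits form the replicative helicase as a hexamer. Of these, 2 were called lower in db/db and 5 in KO_db/db. Mcm5 stood at 6.30, 4.67 and 10.01 CPM in db/+, at 1.91 and 2.05 in db/db, and at 1.85 and 0.922 in KO_db/db. It was 3.56-fold lower in db/db (log2 fold change -1.83 ± 0.36 SE, edgeR adjusted p = 0.0094) and 5.14-fold lower in KO_db/db (-2.36 ± 0.45, edgeR adjusted p = 0.0086). All 4 libraries on the db/db background lay below the lowest lean one, and both calls held when any 1 library was left out.

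Mcm6 was at 15.0, 12.7 and 18.4 CPM in db/+, at 4.72 and 5.95 in db/db, and at 9.64 and 8.96 in KO_db/db. Its fall was 2.90-fold in db/db (-1.53 ± 0.22, edgeR adjusted p = 0.0030) and 1.65-fold in KO_db/db (-0.72 ± 0.18, edgeR adjusted p = 0.023). The 3 groups did not overlap for Mcm6, with KO_db/db between db/db and db/+. The KO_db/db call was lost without KO_db/db 1 or 2 or db/+ 1 (adjusted p up to 0.091), and with total-count scaling (0.134).

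Mcm3 was scarce, at 1.92, 1.42 and 4.95 CPM in db/+, 0.558 and 0.956 in db/db, and 0.534 and 0.849 in KO_db/db. It was called lower in KO_db/db only just (-1.97 ± 0.64, edgeR adjusted p = 0.0497) and was not called in db/db (-1.87 ± 0.64, adjusted p = 0.059), where DESeq2 called it lower (adjusted p = 0.015), as did edgeR without the filter (0.0165). The KO_db/db call was lost without either KO_db/db library, without db/+ 1 or without db/+ 3 (adjusted p up to 0.19), and also with RLE or total-count scaling.

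Mcm7 was at 8.84, 9.45 and 10.9 CPM in db/+, 7.95 and 8.43 in db/db, and 5.70 and 4.25 in KO_db/db. It was 1.96-fold lower in KO_db/db than in db/+ (-0.97 ± 0.20, edgeR adjusted p = 0.011). In db/db the difference was -0.26 ± 0.17 and was not called, and with total-count scaling it turned to 0.23. Exons of Mcm7 share 321 bases with Ap4m1 and 64 with Cops6 on the other strand, and strand was not stated for these libraries, so that reads there cannot be told apart.

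Mcm4 was at 10.1, 8.21 and 11.1 CPM in db/+, 8.51 and 8.38 in db/db, and 6.24 and 6.07 in KO_db/db. It was 1.59-fold lower in KO_db/db (-0.67 ± 0.18, edgeR adjusted p = 0.029), a call lost without either KO_db/db library, db/+ 1 or db/+ 3 (adjusted p up to 0.098) and with total-count scaling (0.213), and it overlapped with lean in db/db. Mcm2 was at 12.1, 11.9 and 22.5 CPM in db/+, 10.2 and 8.46 in db/db, and 9.93 and 8.71 in KO_db/db. It was not called in either comparison (adjusted p = 0.10 in both by edgeR, and 0.037 and 0.0345 without the filter), although every library on the db/db background lay below every lean one.

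Per kilobase of the longest coding transcript, the 6 subunits spanned 0.469 to 6.68 CPM in the lean libraries, 0.184 to 3.02 in db/db and 0.176 to 2.95 in KO_db/db. Mcm3 was the lowest subunit by this measure in 6 of the 7 libraries, and in KO_db/db 2 Mcm5 was, at 0.273 against 0.280.

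Gins2, a subunit of the GINS complex that joins the MCM helicase, had 20, 34 and 75 counts in db/+, 18 and 25 in db/db, and 8 and 14 in KO_db/db. It was called 4.59-fold lower in KO_db/db (-2.20 ± 0.65, edgeR adjusted p = 0.037), and the call was lost without either KO_db/db library, db/+ 2 or db/+ 3 (adjusted p up to 0.13) and with total-count scaling (0.0535). Its exons share 2758 bases with Gse1 on the other strand, which was at 29.9 to 40.3 CPM in db/+ and at 58.1 to 130 elsewhere. Cdc6, which loads the helicase at origins, had 19, 7 and 52 counts in db/+, 8 and 4 in db/db, and 4 and 0 in KO_db/db, where 0 counts allow up to 0.0728 CPM. Its partner Cdt1 was at 0.401 to 1.38 CPM in db/+ and at 0.631 to 1.38 in the other libraries, and neither gene passed the edgeR threshold. DESeq2 called Cdc6 lower in db/db (adjusted p = 0.039) and in KO_db/db (0.020).

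Pcna encodes the sliding clamp. It stood at 31.1, 27.1 and 32.2 CPM in db/+, at 12.7 and 15.8 in db/db, and at 18.8 and 17.7 in KO_db/db. It was 2.13-fold lower in db/db (-1.09 ± 0.16, edgeR adjusted p = 0.0028) and 1.64-fold lower in KO_db/db (-0.72 ± 0.12, edgeR adjusted p = 0.0052). The groups did not overlap, and both calls held when any 1 library was left out. The KO_db/db call was lost with total-count scaling. Of the near-copies Pcna-ps1 and Pcna-ps2, the first had 0 counts in all 7 libraries and the second 11 in 1 of them.

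Rrm1 and Rrm2 encode the large and small subunits of ribonucleotide reductase. Rrm1 was at 23.9, 22.6 and 23.6 CPM in db/+, 16.4 and 17.4 in db/db, and 16.7 and 16.5 in KO_db/db. Its fall was 1.39-fold in db/db (-0.48 ± 0.12, edgeR adjusted p = 0.021), which total-count scaling turned to 0.013, and 1.40-fold in KO_db/db (-0.48 ± 0.10, edgeR adjusted p = 0.012), a call lost with that scaling. The db/db call was also lost without db/db 1 or any 1 lean library (adjusted p up to 0.083).

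Rrm2 was at 4.71, 3.72 and 5.64 CPM in db/+, 8.69 and 6.45 in db/db, and 3.69 and 3.76 in KO_db/db. Both db/db libraries lay above every other library. The difference from lean was 0.68 ± 0.25 and missed the threshold (edgeR adjusted p = 0.072), which it passed with total-count scaling (0.0072). In KO_db/db it was not called. Tyms, which makes thymidylate, was at 5.36 to 6.44 CPM in db/+ and 4.08 to 5.05 in the other 4 libraries, and was not called.

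Tk1, the thymidine kinase of S phase, had 26, 22 and 33 counts in db/+, 2 and 18 in db/db, and 3 and 5 in KO_db/db. It was 7.93-fold lower in KO_db/db (-2.99 ± 0.58, edgeR adjusted p = 0.0090), with 8 counts over both libraries, and was not called in db/db (adjusted p = 0.094). Without KO_db/db 1 or 2 the call was lost (adjusted p up to 0.053). Tk1 shares 83 exon bases with Afmid on the other strand.

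**Figure D2:**
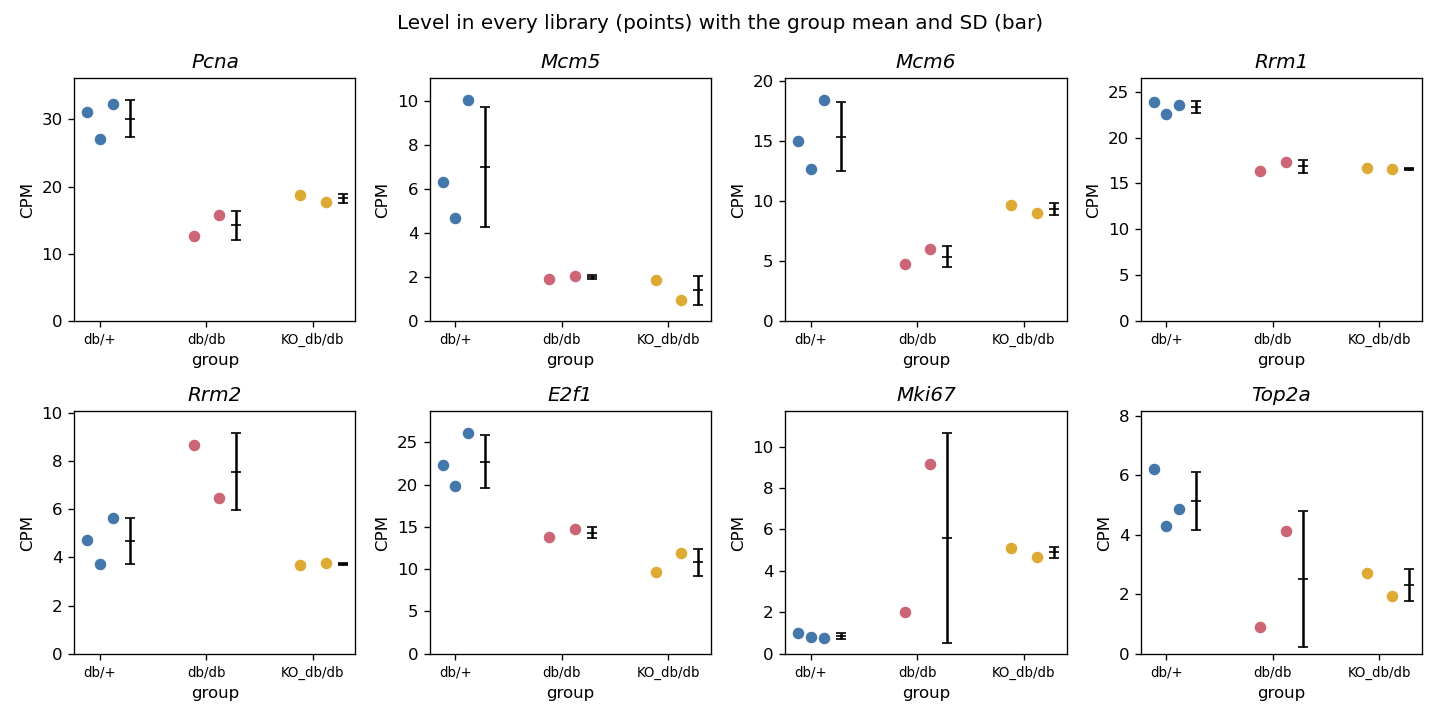
Level in CPM of Pcna, Mcm5, Mcm6, Rrm1, Rrm2, E2f1, Mki67 and Top2a in every library (points), with the group mean and SD beside them (db/+ n = 3, db/db n = 2, KO_db/db n = 2). Pcna, Mcm5, Mcm6, Rrm1 and E2f1 are highest in the 3 db/+ libraries, Rrm2 is highest in db/db, and the 2 db/db libraries lie far apart for Mki67 and Top2a.

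E2f1, the factor that switches on many of these replication genes, was at 22.3, 19.8 and 26.0 CPM in db/+, 13.8 and 14.7 in db/db, and 9.64 and 11.9 in KO_db/db. It was 1.60-fold lower in db/db (-0.68 ± 0.16, edgeR adjusted p = 0.016) and 2.09-fold lower in KO_db/db (-1.06 ± 0.17, edgeR adjusted p = 0.0044). The groups were ordered db/+, db/db, KO_db/db with no overlap, but the last pair did not differ past the threshold (-0.40 ± 0.19, adjusted p = 0.29). The db/db call was lost without db/db 1 or db/+ 1 (adjusted p up to 0.054) and with total-count scaling. Foxm1, which drives mitotic genes, was at 3.23, 2.63 and 1.66 CPM in db/+, 0.587 and 4.85 in db/db, and 3.78 and 3.35 in KO_db/db, and its lowest and highest libraries were both db/db.

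The second question was whether the mitotic genes followed the replication genes. They did not do so in every library. In db/db against db/+, 2 of the 34 mitotic members were called higher and 1 lower, and the median log2 fold change was -0.14. In KO_db/db against db/+, 1 was called higher and 4 lower, with a median of -0.55. The 4 became 0 without db/+ 1, 2 without db/+ 2 or with total-count scaling, and 1 in a fit of all 7 libraries. Of all genes, 11.0%, 11.5%, 4.91% and 15.1% were called lower in these 4 settings. The KO_db/db median was -0.68 without KO_db/db 1 and -0.43 without KO_db/db 2. In db/db the median was -1.49 without db/db 2 and 0.47 without db/db 1. Read against the 18.0% and 17.9% of all genes called lower, the shares of mitotic members called lower with all libraries in were below those of genes at large.

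Single libraries showed what the means did not. Below the range of the 3 lean libraries lay 27 of 34 mitotic members in db/db 1 but 6 in db/db 2, where 18 lay above it. Over 12989 genes tested in both comparisons with db/+, 39.7% lay below and 40.1% above in db/db 1, and 41.1% below and 39.9% above in db/db 2. In KO_db/db 1, 16 mitotic members lay below and 7 above, beside 41.1% and 38.3% of all genes. In KO_db/db 2, 22 lay below and 6 above, beside 40.0% and 38.0% of all genes. Of the 14 replication members, 11 in each db/db library, 13 in KO_db/db 1 and 12 in KO_db/db 2 lay below the lean range. With total-count scaling the replication members below it were 7 and 6 in db/db and 12 in each KO_db/db library. Of all genes, 18.2% and 16.9% then lay below the lean range in db/db 1 and 2, and 39.7% and 17.4% in KO_db/db 1 and 2. The mitotic members below it were then 23 and 1 in db/db and 16 and 17 in KO_db/db. Those above it were 5 and 24 in db/db, beside 66.2% and 67.1% of all genes, and 7 and 10 in KO_db/db, beside 39.6% and 63.3%.

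**Figure D3:**
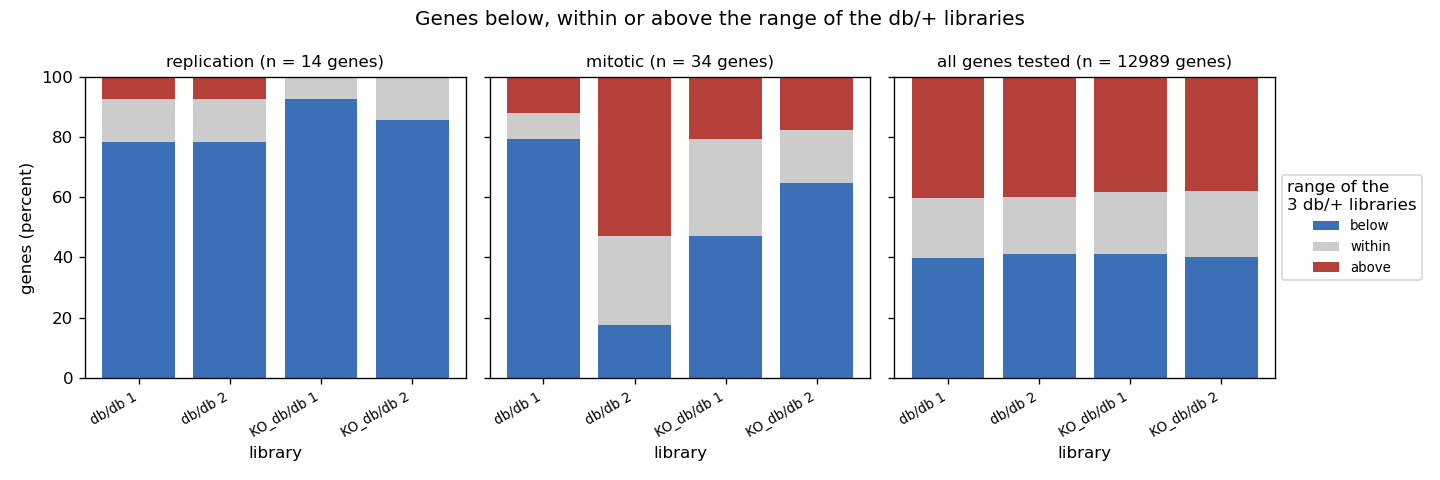
Percent of the replication members, the mitotic members and all genes tested that lay below, within or above the range of the 3 db/+ libraries, for each of the other 4 libraries. The replication bars are mostly below in all 4, whereas the mitotic bars run from 27 of 34 below in db/db 1 to 6 of 34 below in db/db 2.

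The library db/db 2 exceeded db/db 1 for 31 of 34 mitotic members, by a median of 4.30-fold. For the replication members it did so in 9 of 14, by a median of 1.06-fold, and for all 12989 genes in 49.8%. Among the 4 libraries on the db/db background, db/db 2 was the highest for 28 mitotic members and db/db 1 the lowest for 24. A second list of 72 mitosis genes, which shares no member with the first, was higher in db/db 2 for 66, by a median of 1.94-fold. A list of 54 other replication genes was higher in db/db 2 for 31.

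Marker sets of other cells differed between these 2 libraries in both directions. The summed CPM of 10 mesenchymal markers was 2.11 in db/db 1 and 4.83 in db/db 2, that of 10 endothelial markers 21.3 and 26.7, and that of 9 ductal markers 414 and 565. The sums of 18 immune markers (79.7 and 63.1), 6 alpha-cell markers (2526 and 2085) and 5 delta- and PP-cell markers (777 and 434) were lower in db/db 2, as was that of 12 β-cell markers (225603 and 202222). Over all 7 libraries the immune sum ran from 58.1 to 96.0, with Cd3g and Nkg7 at 0 in each. The part of these cells in the mitotic levels was not tested.

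**Figure D4:**
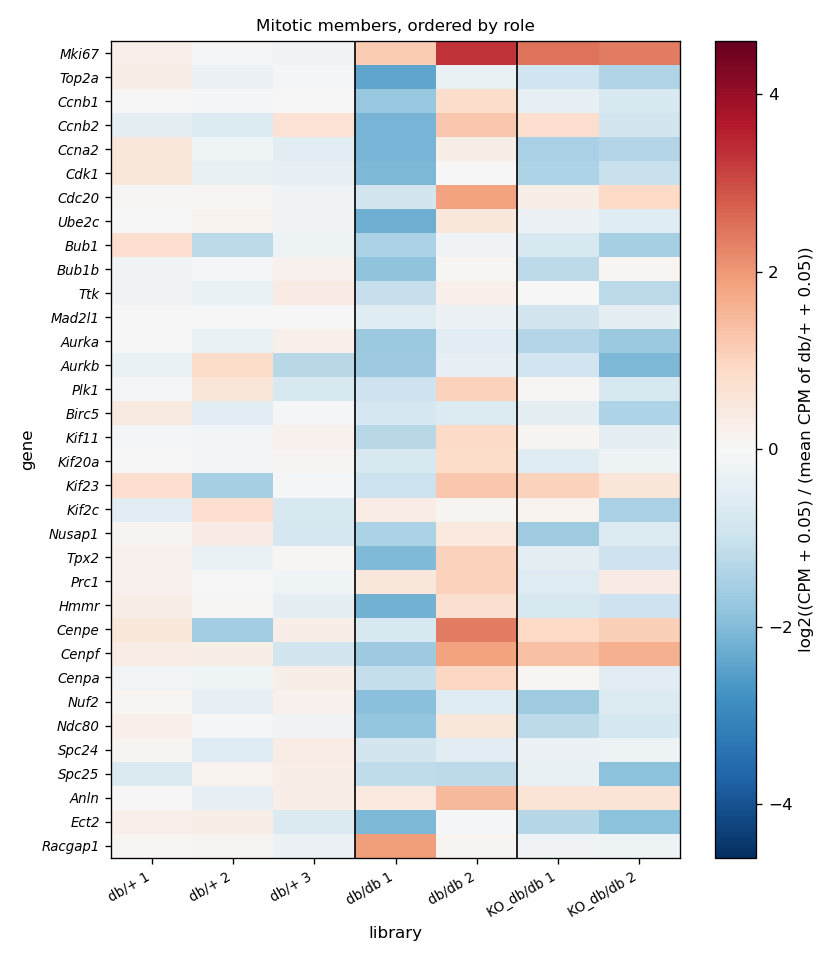
Heat map of the 34 mitotic members (rows, ordered by role) in the 7 libraries (columns), coloured by the log2 ratio of CPM to the mean of the 3 db/+ libraries after 0.05 CPM was added to both. The column of db/db 1 is mostly blue and that of db/db 2 mostly red, while Mki67 and, more faintly, Anln are red in all 4 libraries on the db/db background.

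Mki67, which encodes the Ki-67 protein that coats mitotic chromosomes and is the usual marker of cycling cells, stood out from the other mitotic genes. It was at 1.02, 0.802 and 0.762 CPM in db/+, 2.00 and 9.15 in db/db, and 5.09 and 4.68 in KO_db/db. It was 6.43-fold higher in db/db (2.69 ± 0.61, edgeR adjusted p = 0.015) and 5.68-fold higher in KO_db/db (2.51 ± 0.29, edgeR adjusted p = 0.0016). Anln, a cytokinesis gene that edgeR did not call, was at 0.985 to 1.59 CPM in db/+ and 1.76 to 3.73 elsewhere. For Mki67, as for Anln, every library on the db/db background lay above every lean library. The KO_db/db call held when any 1 library was left out, whereas the db/db call was lost without db/db 2 or db/+ 2, with a log2 fold change of 1.19 without db/db 2.

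Top2a, the topoisomerase that untangles sister chromosomes and a companion marker of cycling cells, went the other way. It was at 6.22, 4.30 and 4.88 CPM in db/+, 0.910 and 4.13 in db/db, and 2.71 and 1.94 in KO_db/db. Its fall was 2.21-fold in KO_db/db (-1.14 ± 0.28, edgeR adjusted p = 0.019), lost without KO_db/db 2 or db/+ 1 (adjusted p up to 0.083) and in a fit of all 7 libraries (0.153). It was not called in db/db (-1.02 ± 0.58, adjusted p = 0.21), where it passed without db/db 2 (-2.51, adjusted p = 0.0070).

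The ratio of Mki67 to Top2a counts was 0.164, 0.186 and 0.156 in db/+, 2.194 and 2.214 in db/db, and 1.88 and 2.41 in KO_db/db. This ratio was chosen after the values had been seen and is given without a test. It was alike in db/db 1 and db/db 2, although both genes were over 4-fold higher in db/db 2.

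The cyclins and their kinase trigger mitosis. Ccna2 (cyclin A2) was at 3.93, 2.41 and 1.87 CPM in db/+, 0.587 and 3.27 in db/db, and 0.944 and 1.04 in KO_db/db. It was 2.72-fold lower in KO_db/db (-1.44 ± 0.43, edgeR adjusted p = 0.036), a call lost without either KO_db/db library, db/+ 1 or db/+ 2 (adjusted p up to 0.13), with total-count scaling (0.0844) and in a fit of all 7 libraries (0.147). It shares 510 exon bases with Exosc9 on the other strand. Cdk1, Ccnb1 and Ccnb2 were not called by edgeR in either comparison, and db/db 2 exceeded db/db 1 in all 3. DESeq2 called Cdk1 lower in KO_db/db (adjusted p = 0.042). It also called Cenpf, a kinetochore gene, higher in KO_db/db (DESeq2 adjusted p = 0.043), where edgeR did not (0.052). Cenpf was at 1.31 and 1.60 CPM there, against 0.242 to 0.614 in db/+.

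Among the mitotic kinases, Aurka (Aurora A, which builds the spindle poles) was at 1.84, 1.495 and 2.18 CPM in db/+, 0.528 and 1.27 in db/db, and 0.698 and 0.534 in KO_db/db. It was 2.98-fold lower in KO_db/db (-1.58 ± 0.43, edgeR adjusted p = 0.027), lost without either KO_db/db library, db/+ 1 or db/+ 3 (adjusted p up to 0.11) and with total-count scaling (0.0727). Plk1, Aurkb and Birc5 were not called, nor were the checkpoint genes Bub1, Bub1b, Ttk and Mad2l1 or the anaphase genes Cdc20 and Ube2c.

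Of the genes of the spindle and of cytokinesis, Prc1, which bundles the microtubules of the central spindle, was at 3.56, 3.06 and 2.70 CPM in db/+, 4.52 and 6.52 in db/db, and 2.05 and 4.08 in KO_db/db. It was 1.77-fold higher in db/db (0.82 ± 0.26, edgeR adjusted p = 0.046), a call lost without db/db 2 or any 1 lean library (adjusted p up to 0.24) and in a fit of all 7 libraries. Its exons share 911 bases with Rccd1 on the other strand. Ect2, the exchange factor that starts the cleavage furrow, was at 3.07, 3.21 and 1.63 CPM in db/+, 0.587 and 2.48 in db/db, and 1.03 and 0.680 in KO_db/db. It was 3.10-fold lower in KO_db/db (-1.63 ± 0.45, edgeR adjusted p = 0.030), lost without either KO_db/db library, db/+ 1 or db/+ 2 (adjusted p up to 0.12) and in a fit of all 7 libraries (0.0906).

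Racgap1, the partner of Ect2 at the central spindle, is named after its values were seen. It was at 49.6 CPM in db/db 1 and at 10.8 to 14.2 in the other 6 libraries. It was thus one of 3 mitotic members that were higher in db/db 1 than in db/db 2, beside Spc25 and Kif2c, and it was not called against db/+ (edgeR adjusted p = 0.067).

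Spc25, a subunit of the NDC80 complex that ties kinetochores to microtubules, had the highest level per kilobase of transcript of the 50 members in every library. It stood at 125, 221 and 241 CPM in db/+, 87.4 and 86.0 in db/db, and 156 and 52.3 in KO_db/db. It was 2.28-fold lower in db/db (-1.19 ± 0.27, edgeR adjusted p = 0.016), a call lost without db/db 1 or 2 (adjusted p up to 0.063), with total-count scaling and in a fit of all 7 libraries, and it overlapped with lean in KO_db/db. Per kilobase of transcript it reached 34.2 to 158 CPM, whereas its partners Nuf2, Ndc80 and Spc24 and the centromere proteins Cenpa, Cenpe and Cenpf spanned 0.00922 to 1.84 over the 7 libraries.

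The gene lies on the minus strand of chromosome 2 (GRCm38, 69193895 to 69206194), 4878 bases from G6pc2 on the plus strand. G6pc2, an islet glucose-6-phosphatase, was at 3329, 3087 and 3278 CPM in db/+, 1342 and 1105 in db/db, and 1761 and 699 in KO_db/db. Counts of Spc25 were 3.74, 7.17 and 7.36% of those of G6pc2 in db/+, 6.51 and 7.79% in db/db, and 8.86 and 7.48% in KO_db/db. No exon of the pair overlaps in the annotation, and whether their transcripts are linked was not tested.

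**Figure D5:**
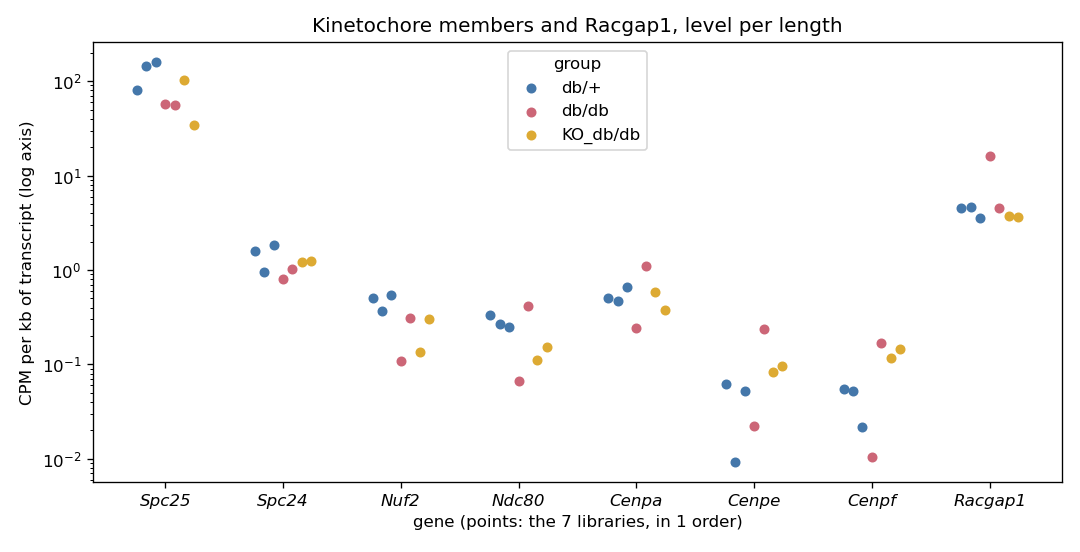
CPM per kilobase of the longest coding transcript, on a log axis, of the 7 kinetochore members and Racgap1 in every library (points, coloured by group). Spc25 lies between 34.2 and 158, above the other kinetochore members in every library, and Racgap1 has 1 high point, db/db 1.

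Because Spc25 and Racgap1 outweigh the rest, the mitotic sum was also taken over the other 32 members, a choice made after their levels were seen. That sum was 54.0, 44.2 and 44.6 CPM in db/+, 23.5 and 73.7 in db/db, and 37.1 and 37.4 in KO_db/db. The lowest and the highest of the 7 libraries were thus both db/db, and KO_db/db lay between them and below the lean libraries.

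The third question was whether loss of Aldh1a3 changed these genes on the db/db background. With 2 mice a group, 0 of the 47 members tested were called in KO_db/db against db/db by edgeR, where 0.126% of all 13486 genes were called higher and 0.193% lower. Aurkb, Tk1 and Cdc6 had too few counts for the test. At an unadjusted p under 0.05, 1 member was higher (Mcm6) and 3 lower (Rrm2, Mcm7 and Racgap1), beside 11.0% and 9.85% of all genes. DESeq2 called 0 higher and 1 lower, Rrm2, beside 5.40% and 4.63% of 13915 genes.

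Rrm2 was 2.03-fold lower in KO_db/db than in db/db (-1.02 ± 0.26), with an adjusted p of 0.14 by edgeR and 0.049 by DESeq2, and both KO_db/db libraries lay below both db/db libraries. Mcm6 was 1.74-fold higher (0.80 ± 0.22, edgeR adjusted p = 0.16) and Mcm7 1.66-fold lower (-0.73 ± 0.25, edgeR adjusted p = 0.20). Mki67 (-0.20 ± 0.68, edgeR adjusted p = 0.88) and Top2a (-0.13 ± 0.73, edgeR adjusted p = 0.93) were not called. The medians were -0.29 over the 12 replication members tested and -0.48 over the 33 mitotic ones, and without db/db 2 the mitotic median turned to 0.95. The acinar counts of KO_db/db 1 and 2 moved with this contrast, and with that of KO_db/db against db/+. With the acinar marker genes left out 0 members were called, as before, but this does not take out member reads from acinar cells.

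Genes of the same pathways outside the 50 members were read from lists of their own. Of 54 other replication genes, 50 were tested in db/db against db/+, where 12 were called lower and 2 higher, and 49 in KO_db/db against db/+, where 16 were called lower and 3 higher. Of all genes, 18.0% were called lower and 19.9% higher in the first comparison, and 17.9% and 20.5% in the second. Among the called genes of this list with a mean of at least 1 CPM, the largest changes in db/db were in Brca2, a recombination gene, which rose 6.90-fold, and in Gmnn (geminin, the inhibitor of Cdt1) and Pole (the leading-strand polymerase), which fell 3.63-fold and 3.62-fold. Brca2 was at 0.696, 0.438 and 0.589 CPM in db/+, 3.90 and 4.11 in db/db, and 1.93 and 2.26 in KO_db/db. In KO_db/db against db/+, Pole was 6.88-fold lower and Brca2 3.66-fold higher, and both were called. Pole was at 1.39, 1.39 and 2.04 CPM in db/+, 0.411 and 0.478 in db/db, and 0.123 and 0.316 in KO_db/db. The level of 0.123 in KO_db/db 1 is the detection floor of that library.

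Of the 72 other mitosis genes in the table, 3 were called higher and 3 lower of 67 tested in db/db, and 4 higher and 6 lower of 63 tested in KO_db/db, fewer than the 17.9% to 20.5% of all genes called in each direction. In db/db, Dlgap5, a spindle protein, rose 4.495-fold, Ncapg2, a condensin subunit, fell 1.84-fold, and Zwint, a kinetochore protein, rose 1.70-fold. In KO_db/db, Pbk, a mitotic kinase, fell 3.91-fold, and Hmgb2, a chromatin protein, rose 2.52-fold, at 9.15 and 4.61 CPM against 2.15 to 3.52 in db/+. Stmn1 (stathmin, which destabilises microtubules) fell 2.37-fold in KO_db/db, where it was at 3.45 and 3.37 CPM against 7.11 to 8.64 in db/+.

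Of 23 genes on a list of RB, E2F and MuvB regulators, which also holds Cdc25a and Ccne2, 22 were tested in each comparison. In db/db 5 were called higher and 2 lower, beside 19.9% and 18.0% of all genes. In KO_db/db 2 were called higher and 3 lower, beside 20.5% and 17.9% of all genes. Rbl1, which encodes the pocket protein p107, was at 6.75, 7.11 and 5.47 CPM in db/+, 1.44 and 2.36 in db/db, and 4.56 and 3.25 in KO_db/db, a fall of 3.39-fold in db/db (edgeR adjusted p = 0.0051). E2f3 and Tfdp2, a partner of the E2F factors, rose 2.47-fold and 2.09-fold in db/db. In KO_db/db, Ccne2 (cyclin E2) fell 1.97-fold and Tfdp2 rose 1.49-fold. E2f2 was called higher in db/db (1.66-fold) and lower in KO_db/db (1.62-fold) than in db/+, with 9.39 and 9.32 CPM in db/db, 3.49 and 3.37 in KO_db/db and 5.24 to 5.94 in db/+. In KO_db/db against db/db, 0 genes of the 3 lists were called by edgeR, and DESeq2 called 2 of the RB list lower and 0 of the others. At an unadjusted p under 0.05, 3 of the replication list were higher and 4 lower, 1 of the mitosis list was higher and 4 lower, and 1 of the RB list was higher and 3 lower, of 45, 57 and 23 tested, beside 11.0% of all genes higher and 9.85% lower.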

How the data were processed

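The 7 β-cell libraries (3 db/+, 2 db/db, 2 KO_db/db mice) were grouped by the sample labels. The authors sequenced paired ends, and deposited estimated counts per gene from kallisto 0.44.0 on GRCm38, after bcl2fastq 2.19 per the submitters' processing notes, rounded to whole numbers and not normalized. The annotation release and strand are not given in the sources used here. Rounding and the splitting of reads between near-copies matter most for the members with few counts. Comparisons were made on the libraries of the compared groups alone, in R 4.3.3 with edgeR 4.0.16 (filterByExpr with a minimum count of 10, TMM, glmQLFit and glmQLFTest, Benjamini-Hochberg, adjusted p under 0.05). The standard error is the log2 fold change divided by the root of F. An edgeR p-value sets the group difference against the spread between mice, which is estimated in part from other genes. With 2 against 3 libraries an exact permutation test cannot go below 0.1, nor below 0.333 with 2 against 2, so none was used.

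Gene positions and transcript lengths came from GENCODE M21 (GRCm38) and promoters from RefSeq (GRCm38.p6); 40 of 45 promoter windows ended inside a transcript of their gene. Values in every library are given for Mki67, Top2a, Pcna, Mcm2 to Mcm7, Rrm1, Rrm2, E2f1, Foxm1 and the members called in any comparison, and for the other lists at most 3 called genes per list and comparison, those of largest change with a mean of at least 1 CPM. The members and lists were chosen with earlier results of these data known. No 2 replicates of a group agreed within sampling noise. Fits were tested on simulated data. Alternatives were RLE or total-count scaling, DESeq2 1.42.0, no filter, one fit of all libraries, a replicate block by mouse number, a threshold of 0.01, leaving out the acinar genes or Ins1 and Ins2, and leaving out each library.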

Additional observations from a re-analysis of the deposited data

How the results depend on the processing

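With total-count scaling the median of all genes moved to 0.50 for db/db over lean, 0.21 for KO_db/db over lean and -0.28 for KO_db/db over db/db. The member calls for db/db over lean were then 5 higher and 3 lower (2 and 6 with TMM), beside 5971 of 13406 genes higher and 5.97% lower. The replication median was -0.43, with Mcm4, Mcm7 and Rrm1 at 0.26, 0.23 and 0.013. For KO_db/db over lean 2 were higher and 7 lower (1 and 14), beside 2971 of 13228 genes higher and 4.91% lower. The mitotic median was -0.37. For KO_db/db over db/db 2 were lower (0 with TMM), beside 6.55% of all genes, with a replication median of -0.53. At a threshold of 0.01, 0 were higher and 3 lower for db/db over lean, beside 1385 of 13406 genes higher and 8.16% lower. At that threshold 4 were lower for KO_db/db over lean, beside 6.89% of all genes. DESeq2 called 2 higher for KO_db/db over lean (Mki67 and Cenpf), beside 2983 of 14399 genes. For KO_db/db over db/db it called 1 lower, beside 4.63% of all genes, with a replication median of -0.49. Without the filter 2 were lower for KO_db/db over db/db, beside 3.90% of all genes. The replication median was then -0.50, as in the fit of all 7 libraries. Mcm2 in that comparison was at -0.0034, at 0.0060 with RLE scaling and at 0.0023 with DESeq2. Leaving out Spc25 and Racgap1, chosen after seeing the data, gave mitotic medians of -0.14, -0.55 and -0.48. Leaving out the acinar marker genes changed no call named here, but does not take out member reads from acinar cells.

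The mouse numbers did not pair the samples (correlation of deviations -0.059 for KO_db/db with db/db, -0.078 and -0.10 with db/+, and 0.058 and 0.076 for db/db with db/+). With the replicate block 7 members were lower for KO_db/db over lean, beside 12.6% of all genes. Of the 7, 4 were replication genes (9 without the block). The calls of Mcm3, Mcm4, Mcm6, Rrm1, Gins2, Ccna2 and Aurka were lost. The db/db calls of Rrm1 and Prc1 were lost too, and Foxm1 was at -0.66 for db/db over lean. For KO_db/db over db/db, Mki67, Top2a and Mcm2 were at 0.15, 0.18 and 0.00066 with the block (-0.20, -0.13 and -0.0034 without it).

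With each library left out in turn, the members called for db/db over lean ranged from 0 to 4 higher and from 3 to 12 lower, the 12 without db/db 2. The replication median ranged from -1.04 to -0.50, the mitotic one from -1.49 to 0.47, and Foxm1 from -2.10 to 0.94. For KO_db/db over lean 5 to 11 were lower. For KO_db/db over db/db 0 to 1 were lower, the replication median ranged from -0.48 to -0.30 and the mitotic one from -1.06 to 0.95. In that comparison Mki67 ranged from -0.91 to 1.29, Top2a from -0.84 to 1.34, Mcm2 from -0.13 to 0.14, Mcm3 from -0.50 to 0.32, Rrm1 from -0.070 to 0.017 and Foxm1 from -0.45 to 2.59. Of the calls against db/+, 3 of 6 lower in db/db and 5 of 14 lower in KO_db/db kept their side of the threshold in every such fit.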
